A study of Mus musculus with 8 samples.

Results

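The 8 limb bud samples of this study were titled with numbers that fall into 2 unbroken runs, and gene expression was compared between these runs. Run 1 held the samples numbered 2088 to 2091 and run 2 those numbered 2097 to 2100. In each run 2 samples came from the zone of polarizing activity (ZPA), the posterior signalling centre of the limb bud, and 2 from its remaining cells (non-ZPA). Both ZPA samples of run 1 carried the same values apart from rounding and were counted as 1 array, called ZPA array 1+2. The comparison therefore rests on 7 of 7 distinct arrays, 3 of run 1 (ZPA array 1+2 and non-ZPA arrays 1 and 2) and 4 of run 2 (ZPA arrays 3 and 4 and non-ZPA arrays 3 and 4). All samples came from mouse embryos at E10.5 that were heterozygous for Shhgfpcre, an allele that places a green fluorescent protein and Cre recombinase cassette at the gene of the secreted signal Sonic hedgehog. Cells of dissociated limb buds were sorted by fluorescence, GFP-positive cells as ZPA and GFP-negative cells as non-ZPA, so both runs share genotype, stage and sorting and no sample carries 2 unmodified Shh alleles. The labels give neither fore- nor hindlimb, nor litter, nor the number of embryos pooled, and they do not state that the runs were collections. Scan and hybridization days were recorded for 7 of the 8 samples, all but ZPA 2, and split these the same way, so run and scan day cannot be told apart.

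Fore- and hindlimb buds are built from closely similar mesenchyme but carry different selector genes. Tbx5 is active in the forelimb, Tbx4 and its upstream regulator Pitx1 in the hindlimb, and the Hox genes expressed along the trunk set the level at which each limb forms. Within a limb, the 5′ Hoxd genes come on late and distally, and Shh from the ZPA sustains posterior genes such as Hoxd13, Bmp2 and Ptch1.

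The arrays differed in ways that the sorts and runs do not fully describe. Relative to the non-ZPA arrays, whose values ran from 0.803 to 1.17, the mean signal of the bacterial and phage spike-in controls was 9.84 on ZPA array 1+2, 5.93 on ZPA array 4 and 1.45 on ZPA array 3. The 3′ to 5′ ratio of the beta-actin controls, a measure of RNA or target integrity, was 21.6 on ZPA array 4 and between 2.04 and 5.37 on the other arrays. The 5′ control probe set for 18S ribosomal RNA gave 21670 on ZPA array 1+2 and 7446 and 7652 on non-ZPA arrays 1 and 2, against 5180, 5406, 324 and 376 on the 4 arrays of run 2. It was lower in run 2 in both sorts, with a mean log2 difference of -3.23, with an exact 2-sided permutation p of 0.0556 (adjusted 0.333 over 6 control measures), the smallest p that the 18 arrangements of runs within sorts allow. The other 18S probe sets differed less between runs, above all in ZPA. Their log2 differences were -3.37 (middle) and -1.31 (3′) in non-ZPA and -0.093 and 0.44 in ZPA, with exact permutation p of 0.111 and 0.333 over both sorts. Xist, the RNA that coats the inactive X chromosome of females, was at 301 on ZPA array 1+2 and 156 on non-ZPA array 2, both of run 1, and between 736 and 4787 elsewhere. The Y-linked gene Eif2s3y was highest on the same pair of arrays, at 1678 and 1905, against 658 to 1233 on the others. Correlations of log2 values between non-ZPA arrays were 0.953 and 0.964 within a run and between 0.939 and 0.942 across runs. ZPA array 1+2 correlated with the ZPA arrays of run 2 at 0.791 and 0.854, against 0.894 between those 2.

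**Figure D1:**
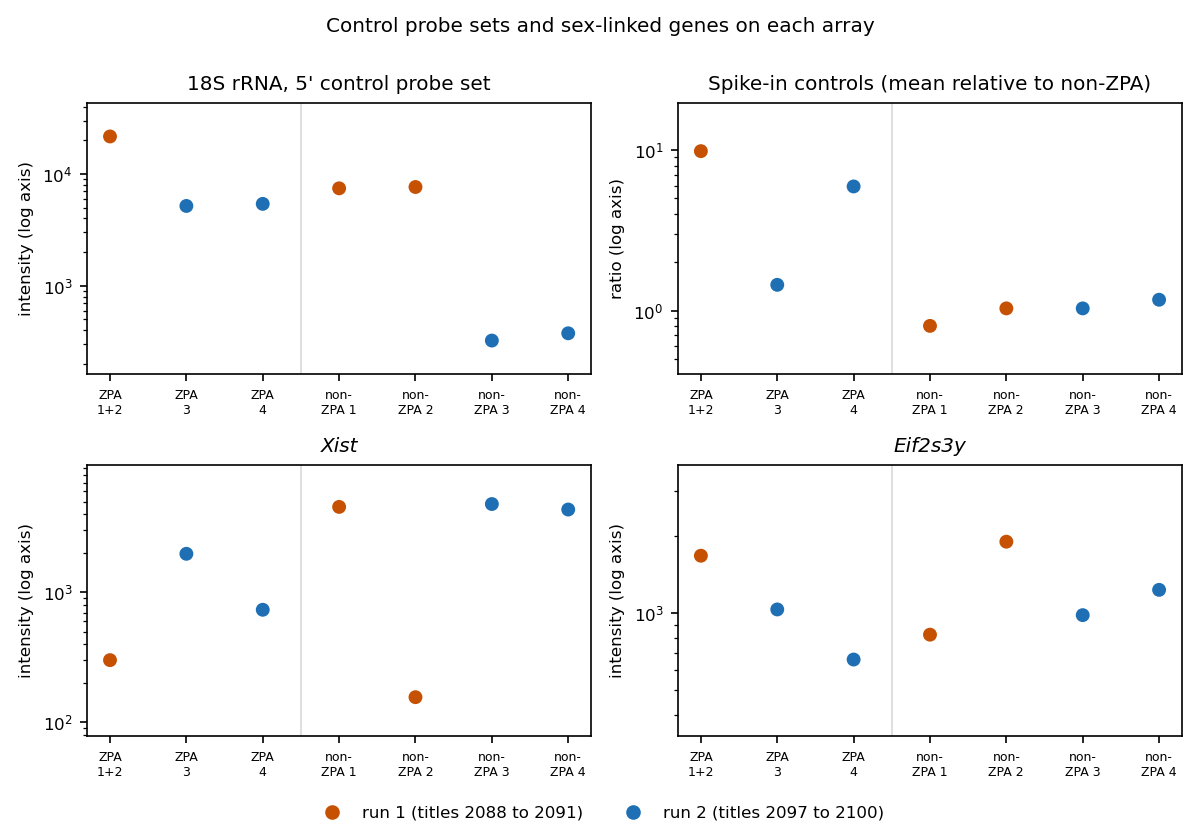
Values of 4 measures on each of the 7 arrays, on log axes: intensity of the 18S rRNA 5′ control probe set, mean spike-in signal relative to the non-ZPA arrays, and intensities of Xist and Eif2s3y. Orange points are run 1 and blue points run 2. The 18S probe set is at 324 and 376 on the non-ZPA arrays of run 2 and at 5180 or more on the other arrays, and the spike-in signal is highest on ZPA array 1+2.

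With sort in the model, 3 genes that mark the hindlimb were lower in run 2 than in run 1, each by more than 10-fold at the probe set of highest mean. Together with 13 other lower genes, among them Hoxd13 and Bmp2, and 5 higher genes, led by Igdcc3 and Lin28a, they made up 21 genes past the test among 13341 (0.157%), of which 5 were higher in run 2 (0.0375%) and 16 lower (0.12%). The test was limma on log2(intensity + 16), and a gene was called at a Benjamini-Hochberg adjusted p under 0.05 over all genes. At an unadjusted p under 0.05 there were 1401 genes. In all 21 genes the runs did not overlap in either sort and the difference had the same sign in both sorts. The fit that selected the 21 favours such genes, so this is no separate support. Non-overlap alone was common, at 1107 genes higher (8.3%) and 1321 genes lower in run 2 (9.9%). The call rests on few arrays. It fell to 0 genes without ZPA array 3 (1282 at an unadjusted p under 0.05), to 3 without ZPA array 1+2, to 4 without non-ZPA array 3, to 11 without non-ZPA array 2 and to 13 without non-ZPA array 1, and rose to 62 without both ZPA arrays of high spike-in signal, 19 of the 21 among them. Without ZPA array 1+2, alone or together with ZPA array 4, only the non-ZPA arrays carry the run contrast. These arrays also helped to select the 21 genes. In limma without an intensity trend 0 genes were called (1303 at an unadjusted p under 0.05). The sign of all 21 genes held in each of these, which is no further support. Where arrays were left out, the lack of overlap in both sorts fixed the sign in advance, and the trend setting leaves the differences unchanged.

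The hindlimb genes separated the runs in both sorts. Pitx1, the homeodomain factor that specifies hindlimb identity, had an intensity of 996 on ZPA array 1+2 and 1233 and 926 on non-ZPA arrays 1 and 2, against 18.3 and 75.6 on the ZPA arrays and 83.6 and 32.4 on the non-ZPA arrays of run 2. Every run 1 value lay above every run 2 value, and only 1 of the 4 run 2 values exceeded the level set by the 40th percentile of its array (50.8 to 91.9), below which a probe set is dim. The difference was -4.05 ± 0.45 on the log2 scale (SE, 3 against 4 arrays, adjusted p = 0.00506), 16.6-fold lower in run 2. It was -3.97 ± 0.57 within non-ZPA and -4.17 ± 0.70 within ZPA.

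Hoxc10, a posterior Hox gene expressed in hindlimb but not forelimb buds, was at 590.0 on ZPA array 1+2 and 533 and 1064 on non-ZPA arrays 1 and 2. In run 2 it read 4 and 21.6 in ZPA and 72.9 and 35.8 in non-ZPA, again with 1 of 4 values above its array's level. The difference was -3.89 ± 0.49 (adjusted p = 0.00762). Tbx4, the T-box factor of hindlimb outgrowth, was at 1021 on ZPA array 1+2, and at 1259 and 1942 on non-ZPA arrays 1 and 2. In run 2 it read 94.3 and 9.6 in ZPA and 112 and 212 in non-ZPA, where 3 of 4 values were above their arrays' level. The difference was -3.64 ± 0.51 (adjusted p = 0.0176), or 12.5-fold. Pitx1 and Tbx4 each had a second, dimmer tested probe set, where the difference had the same sign but was smaller and did not pass, at -1.28 (adjusted p = 0.337 over all probe sets) for Pitx1 and -1.47 (adjusted p = 0.447) for Tbx4. Hoxc10 had 1 tested probe set. Pitx1 stayed past the test in 22 of 25 alternative settings, Hoxc10 in 21 and Tbx4 in 17, with the highest adjusted p at 0.0828, 0.104 and 0.166. All folds are on the log2(intensity + 16) scale, which shrinks differences of dim probe sets.

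Isl1, a LIM homeodomain factor that starts hindlimb outgrowth, was the remaining tested member of the 4 tested hindlimb genes. It read 168 on ZPA array 1+2 and 122 and 284 on non-ZPA arrays 1 and 2, against 11 and 21 in ZPA and 118 and 19.1 in non-ZPA of run 2. The runs did not overlap in either sort, but the difference of -1.96 ± 0.63 did not pass the test (adjusted p = 0.329). A second tested Isl1 probe set differed by -2.94 and did not pass either (adjusted p = 0.142 over all probe sets). Of the 9 hindlimb genes listed, 6 were on the array, and 2 of these (Hoxc9 and Hoxc13) did not pass the filter on dim values. The median difference of the 4 tested members was -3.76, against -0.0007 over all genes. Of the 4, 3 were called, against 0.12% of all genes called as lower. The list was chosen with earlier results of these data known, so these values describe it and are no separate support.

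**Figure D2:**
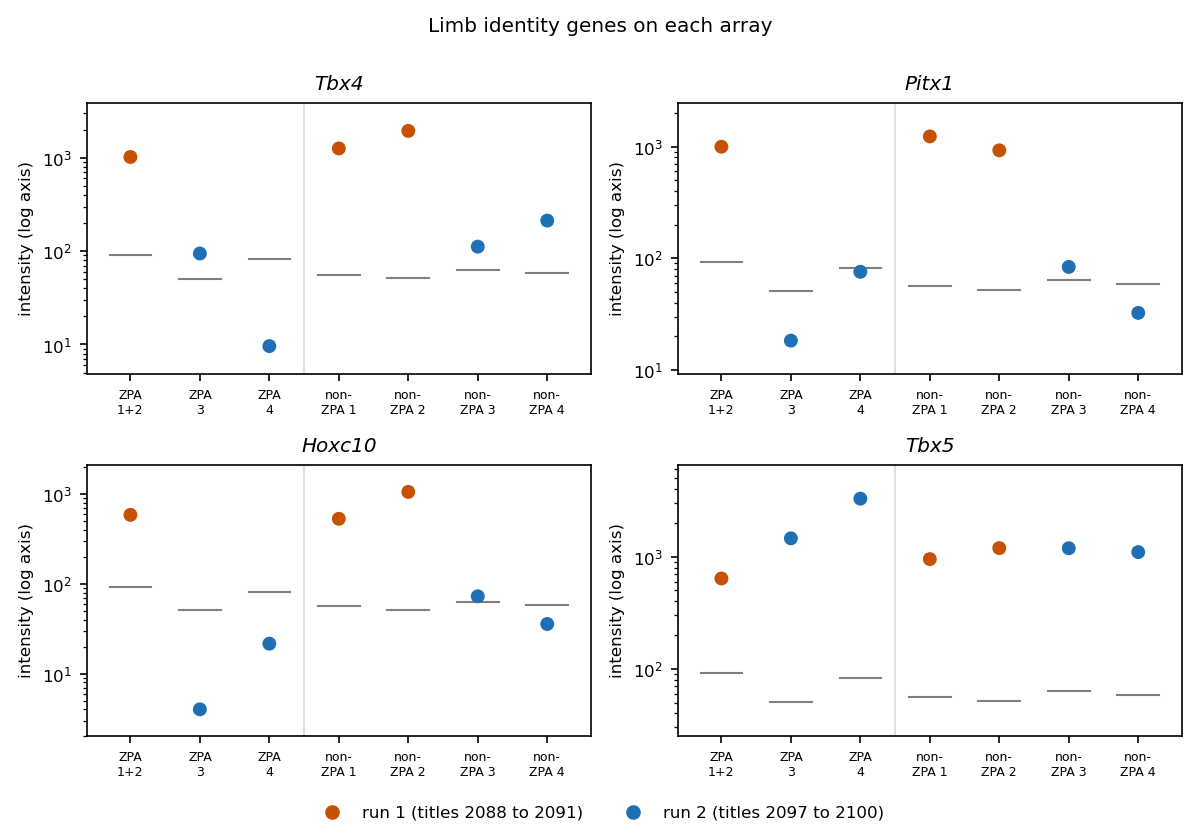
Intensity of Tbx4, Pitx1, Hoxc10 and Tbx5 on each of the 7 arrays, on log axes. Orange points are run 1, blue points run 2, and grey bars mark the 40th percentile of each array. The 3 hindlimb genes lie above 500 on every run 1 array and below 220 on every run 2 array, while Tbx5 is between 639 and 3293 on all arrays.

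The forelimb selector gene Tbx5 was present in both runs. Its intensity was 639 on ZPA array 1+2 and 952 and 1193 on non-ZPA arrays 1 and 2, against 1459 and 3293 in ZPA and 1190 and 1099 in non-ZPA of run 2. The runs overlapped in non-ZPA and were apart in ZPA. The difference was 0.76 ± 0.41 with sort in the model (adjusted p = 0.531), 0.10 ± 0.40 within non-ZPA (adjusted p = 0.989) and 1.75 ± 0.48 within ZPA (adjusted p = 0.0438), and the run by sort interaction of 1.65 did not pass (adjusted p = 0.171). The ZPA value did not pass in 10 of 21 alternative settings. Of the 7 tested forelimb and thoracic genes 0 were called with sort in the model. An unadjusted p under 0.05 was reached by 2, both higher in run 2, against 612 of all 13341 genes with such a p and higher. The median difference of the 7 forelimb and thoracic genes was 0.76, and 6 of 7 had a positive sign.

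Among these, Hoxc5 read 6.69 on ZPA array 1+2 and 31.1 and 179 on the ZPA arrays of run 2. In non-ZPA it read 314 and 918 against 1823 and 1558, and the difference was 1.80 ± 0.52 (adjusted p = 0.275). A second tested Hoxc5 probe set went the other way in ZPA, at 51.3 against 9.6 and 23.5. With sort in the model that probe set differed by 0.70 (adjusted p = 0.705 over all probe sets). Hoxb5 was dim in ZPA in both runs (18.5 against 8.5 and 11.9) and read 60.3 and 131 against 1356 and 663 in non-ZPA, a within-sort difference of 3.19 that did not pass the test (adjusted p = 0.135). The differences of the other members were 0.79 for Hoxc4, 0.69 for Hoxb6, 0.62 for Hoxc6 and -0.15 for Hoxc8, with adjusted p between 0.517 and 0.937. These are Hox genes of the neck and trunk.

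The distal Hox gene Hoxd13 and the posterior signals did not all move the same way. Hoxd13, whose product patterns digits, had an intensity of 52623 on ZPA array 1+2 and 15871 and 11198 on non-ZPA arrays 1 and 2, against 11559 and 13891 in ZPA and 1613 and 2101 in non-ZPA of run 2. The run 1 values were higher in each sort. The difference was -2.53 ± 0.30 (adjusted p = 0.00594), 5.77-fold, and Hoxd13 was 1 of the 3 genes called within non-ZPA alone (-2.85 ± 0.29, adjusted p = 0.0182). Bmp2, a bone morphogenetic protein expressed in the posterior limb bud and the ectodermal ridge, read 2814 on ZPA array 1+2 and 494 and 1220 on non-ZPA arrays 1 and 2, against 419 and 626 in ZPA and 54.3 and 67.5 in non-ZPA of run 2. It was 7.96-fold lower in run 2, by -2.99 ± 0.40 (adjusted p = 0.0125).

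Shh, the gene whose reporter was sorted, went the other way without passing the test. It read 6226 on ZPA array 1+2 against 12148 and 11191 on ZPA arrays 3 and 4, and 319 and 203 on non-ZPA arrays 1 and 2 against 868 and 1085 on non-ZPA arrays 3 and 4. The runs did not overlap in either sort, with a difference of 1.48 ± 0.33 (adjusted p = 0.145). It passed in 5 of 25 alternatives, among them the fit without both ZPA arrays of high spike-in signal. Ptch1, the Shh receptor and a direct target of the pathway, read 17177 on ZPA array 1+2 against 7179 and 4541, and 6693 and 4524 against 3746 and 2998 in non-ZPA, a difference of -1.06 ± 0.32 that did not pass (adjusted p = 0.300). Hand2, a factor needed to switch on Shh, differed by -0.44 ± 0.44 (adjusted p = 0.728). Of the 11 tested genes of the posterior limb and the Shh response 1 was called, Bmp2, and the list's median was -0.10. In these bulk samples fewer cells of a kind and less RNA per cell cannot be told apart.

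**Figure D3:**
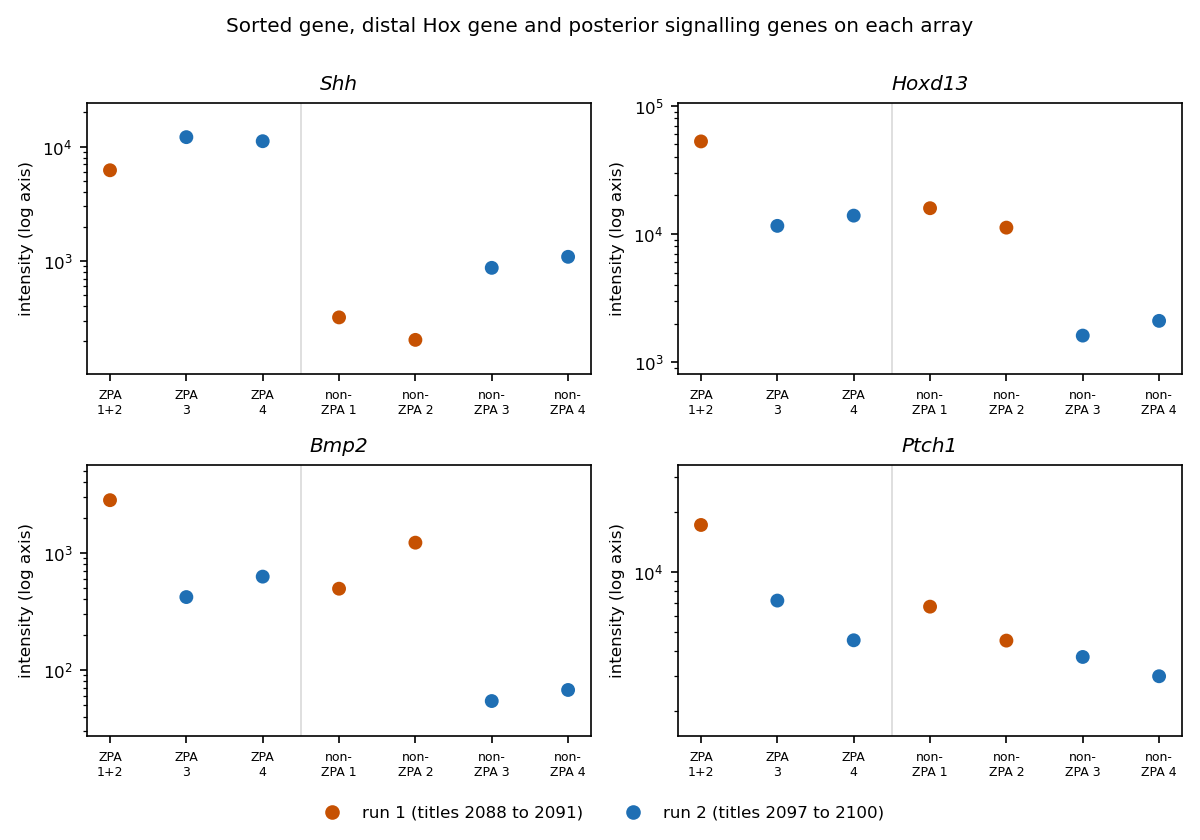
Intensity of Shh, Hoxd13, Bmp2 and Ptch1 on each of the 7 arrays, on log axes, with run 1 in orange and run 2 in blue. Shh is higher on the run 2 arrays of each sort, and Hoxd13, Bmp2 and Ptch1 are higher on the run 1 arrays of each sort.

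Shh was higher in ZPA than in non-ZPA in both runs. In run 1 the ZPA side is the single array 1+2, of highest spike-in signal, so errors and p-values of that contrast take their spread from the other groups. Shh was 23.0-fold higher in ZPA than in non-ZPA in run 1 (4.53 ± 0.39 on the log2 scale, adjusted p = 0.00212) and 11.8-fold higher in run 2 (3.56 ± 0.32, adjusted p = 0.00103), and the run by sort interaction of -0.96 did not pass (adjusted p = 0.302). Hoxd13 was 3.94-fold higher in ZPA in run 1 (adjusted p = 0.0101) and 6.83-fold in run 2 (adjusted p = 0.00194). Bmp2 was 3.56-fold higher in run 1, where it did not pass (adjusted p = 0.0758), and 6.90-fold in run 2 (adjusted p = 0.0117), and neither gene passed the interaction test (adjusted p = 0.343 for Hoxd13 and 0.482 for Bmp2). Across all genes 8.45% passed the test between sorts in run 1 and 6.01% in run 2.

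The other lower genes had varied roles. Jag1, a ligand of Notch receptors, read 1312 on ZPA array 1+2 against 322 and 431, and 3127 and 1721 against 250.1 and 165 in non-ZPA. It was 6.75-fold lower in run 2 with sort in the model (-2.76 ± 0.41, adjusted p = 0.0197) and was also called within non-ZPA (-3.41 ± 0.40, adjusted p = 0.031). Rprm, which encodes a mediator of p53-dependent cell cycle arrest, read 1238 against 95.7 and 145 in ZPA and 3409 and 2544 against 435 and 484 in non-ZPA, a difference of -2.87 ± 0.32 (adjusted p = 0.00506). In both genes the lowest run 1 value of a sort was more than 2 times the highest run 2 value of that sort. Sulf1, an enzyme that removes sulphate from heparan sulphate at the cell surface, was 6.73-fold lower and Ltbp1, which binds latent TGF-beta in the matrix, 5.57-fold lower. Cbln4, a secreted member of the cerebellin family, was 6.53-fold lower. Adgrl3, an adhesion receptor of the latrophilin group, was 5.31-fold lower, and Frg1, a nuclear protein linked to RNA processing, 5.80-fold lower. Adjusted p-values of these 5 ranged from 0.0176 to 0.0327.

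The 4 remaining called genes, named here after their values were seen, were lower in run 2 as well. Klf9, a zinc-finger transcription factor, differed by -2.32, Sdc4, a cell-surface heparan sulphate proteoglycan, by -2.19, Sft2d2, a vesicle transport protein, by -1.90, and Wtap, a subunit of the RNA adenosine methylation complex, by -1.80. More than 1 probe set was tested for 15 of the called genes. Their signs matched in 10 of these and disagreed for Adgrl3, Klf9, Sft2d2, Wtap and Igdcc3. The 18S 5′ signal was also lower in run 2 in both sorts, while the middle and 3′ 18S probe sets differed little in ZPA, and its part in these differences was not tested.

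The 5 higher genes were led by Igdcc3 and Lin28a. Igdcc3, a membrane protein of the immunoglobulin superfamily, read 364 on ZPA array 1+2 against 9702 and 17717, and 1489 and 900 against 9992 and 8939 in non-ZPA. Every run 2 value was more than 5 times every run 1 value. The difference was 3.85 ± 0.43 (adjusted p = 0.00506), 14.4-fold, and Igdcc3 was the only gene called as higher within non-ZPA alone (3.01 ± 0.36, adjusted p = 0.031). Lin28a, an RNA-binding protein that blocks maturation of let-7 microRNAs and declines as embryos age, read 16.4 on ZPA array 1+2 against 506 and 289, and 231 and 116 against 1994 and 1139 in non-ZPA. It was 9.81-fold higher in run 2 (3.29 ± 0.40, adjusted p = 0.00594), and both of its tested probe sets had that sign.

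Crabp1, a cytosolic binding protein of retinoic acid, read 915 against 9212 and 15719 in ZPA and 1243 and 1333 against 4417 and 4655 in non-ZPA, 5.90-fold higher in run 2 (2.56 ± 0.40, adjusted p = 0.0248). Tmem204, a membrane protein of endothelial cells, was 4.31-fold higher (adjusted p = 0.0327), and Vegfd, a growth factor of lymphatic and blood vessels, 3.78-fold higher (adjusted p = 0.0488). Of 12 tested endothelial genes 0 were called and 5 had an unadjusted p under 0.05, all higher in run 2, against 612 of all 13341 genes with such a p and higher in run 2. Their median difference was 0.82, and their summed intensity was 1808 and 1479 in run 1 against 3489 and 3656 in run 2 in non-ZPA, and 1628 against 1457 and 5445 in ZPA, where the runs overlapped. The part of endothelial cells in these differences was not tested.

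**Figure D4:**
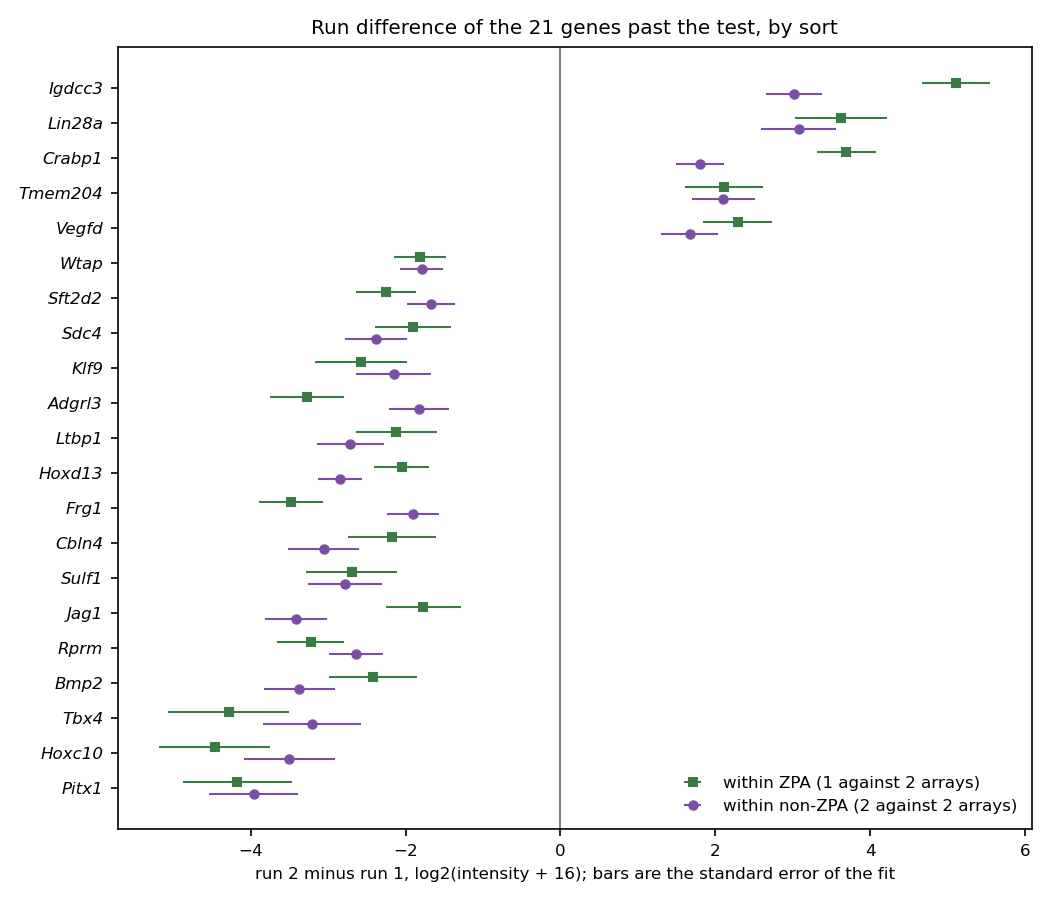
Run 2 minus run 1 on the log2(intensity + 16) scale for the 21 genes past the test, estimated within ZPA (green squares) and within non-ZPA (purple circles), with bars of 1 standard error. The points of both sorts lie on the same side of 0 for all 21 genes, and none of the 21 passed the interaction test. The fit that selected the 21 favours genes with like differences in both sorts, and 2.23% of all genes passed the interaction test. Neither feature is therefore separate support.

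Since fewer than 12 genes were called as higher, the 6 next largest differences with no overlap in either sort are given as values that did not pass. They were Pkdcc, a secreted kinase of limb cartilage, at 2.91 (adjusted p = 0.101), Gm38462 at 2.37 (0.109), Cd93, an endothelial receptor, at 2.17 (0.299), the proximal limb factor Meis1 at 2.14 (0.145), Hoxd9 at 2.13 (0.194) and Enho, which encodes a secreted peptide, at 2.11 (0.329). Pkdcc, Hoxd9 and Enho also passed the run by sort interaction, with ZPA array 1+2 at 44.8, 185 and 10.6 and all other arrays at 844 or more, 2291 or more and 199 or more. Gm38462 was dim on every run 1 array, at 23.3 in ZPA and 22.6 and 34.8 in non-ZPA. In run 2 it read 269 and 393 in ZPA and 148 and 143 in non-ZPA. It passed the filter on dim values through the run 2 arrays alone, so the filter itself favoured a higher value in run 2.

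Among the called genes with a promoter entry, 4 are shown because they carry the contrast between runs in opposite directions, Tbx4 and Hoxd13 lower and Igdcc3 and Lin28a higher in run 2. The sequences are RefSeq starts on build GRCm38.p6 with 250 bases before and 50 after the start, written 5′ to 3′ on the gene's strand. They lie at chr11:85896515-85896814 on the plus strand for Tbx4, chr2:74667975-74668274 on the plus strand for Hoxd13, chr9:65140904-65141203 on the plus strand for Igdcc3 and chr4:134018767-134019066 on the minus strand for Lin28a. Capitals mark matches on either strand to TATAAA, the TATA box, and GGGCGG, the GC box. TAATCC, a core bound by PITX1-type homeodomains, was also searched and is in none of the 4. Among called genes with an entry that are not shown, it occurs in 1 window of Ltbp1 and in the windows of Sft2d2.
Tbx4: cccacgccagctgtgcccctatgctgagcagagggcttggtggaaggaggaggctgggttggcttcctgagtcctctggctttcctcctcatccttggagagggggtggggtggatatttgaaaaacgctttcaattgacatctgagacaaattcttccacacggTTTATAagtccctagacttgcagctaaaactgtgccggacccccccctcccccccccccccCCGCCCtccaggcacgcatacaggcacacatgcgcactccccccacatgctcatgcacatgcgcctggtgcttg
Hoxd13: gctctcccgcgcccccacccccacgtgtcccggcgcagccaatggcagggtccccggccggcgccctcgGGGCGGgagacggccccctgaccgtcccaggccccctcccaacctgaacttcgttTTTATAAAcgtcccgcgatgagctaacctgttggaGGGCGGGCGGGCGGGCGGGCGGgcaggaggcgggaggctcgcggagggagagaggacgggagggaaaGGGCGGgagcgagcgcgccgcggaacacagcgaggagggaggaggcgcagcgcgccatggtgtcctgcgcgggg
Igdcc3: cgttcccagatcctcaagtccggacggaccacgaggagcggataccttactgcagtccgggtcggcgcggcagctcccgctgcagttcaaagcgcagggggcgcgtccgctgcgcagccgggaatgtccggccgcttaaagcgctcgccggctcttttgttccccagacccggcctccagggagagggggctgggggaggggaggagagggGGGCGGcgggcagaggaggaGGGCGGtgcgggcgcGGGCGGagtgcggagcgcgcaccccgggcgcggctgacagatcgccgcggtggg
Lin28a: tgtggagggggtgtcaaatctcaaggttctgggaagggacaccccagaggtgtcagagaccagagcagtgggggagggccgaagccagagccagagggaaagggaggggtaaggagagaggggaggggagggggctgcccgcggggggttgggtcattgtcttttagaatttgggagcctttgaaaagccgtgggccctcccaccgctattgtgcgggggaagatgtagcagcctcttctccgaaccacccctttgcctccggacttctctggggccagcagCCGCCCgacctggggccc
Counting both strands and overlapping matches, TATAAA occurs 1 time in the Tbx4 window and 2 times in the Hoxd13 window, where both matches overlap, and in neither of the others. GGGCGG occurs 1 time in the Tbx4 window, 7 times in that of Hoxd13, 3 times in that of Igdcc3 and 1 time in that of Lin28a. Of 32851 windows of the same length in the table, 13.6% hold TATAAA, 35.7% GGGCGG and 7.1% TAATCC. The windows of Hoxd13 and Igdcc3 have 37 and 38 CpG dinucleotides and those of Tbx4 and Lin28a have 8 and 10, so each direction holds a CpG-rich and a CpG-poor window. Entries were found for 15 of the 21 called genes, and Pitx1, Hoxc10, Bmp2, Sulf1, Frg1 and Tmem204 are named only.

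Lists of related genes were described by counts and medians beside those of all genes, where 5 rose, 16 fell and the median was -0.0007. The 6 tested HoxB genes were all positive in sign with a median of 1.08, but 0 were called. An unadjusted p under 0.05 was reached by 4 of them, against 612 of all 13341 genes with such a p and higher in run 2. Hoxb2 differed by 1.66 (adjusted p = 0.230) and Hoxb3 by 0.99 (adjusted p = 0.409). Their median was 1.53 within non-ZPA and -0.03 within ZPA, where the summed HoxB signal was 482 on ZPA array 1+2 and 506 and 671 on the ZPA arrays of run 2. Of 8 HoxA genes 0 were called. Hoxa9 read 102245 on ZPA array 1+2 and between 12715 and 19374 on the other 6 arrays, so that its difference of -0.95 (adjusted p = 0.504) rests on that array, and without it the value was 0.15. Hoxa10 differed by -1.06 (adjusted p = 0.455). Of 7 HoxD genes Hoxd13 alone was called, with Hoxd10 at 0.34 (adjusted p = 0.710).

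Genes of the mesenchymal condensations that precede cartilage had a median of -0.82 over 10 tested members, 9 of them negative and 0 called. An unadjusted p under 0.05 was reached by 4, all lower in run 2, against 789 of all 13341 genes with such a p and lower. Col9a1, a cartilage collagen, differed by -1.51 (adjusted p = 0.299). The 5 somite and sclerotome genes had a median of -0.90, with 3 negative and Meox2 at -1.38 (adjusted p = 0.277). The median of these 5 was -0.04 within non-ZPA and -1.50 within ZPA, where run 1 is ZPA array 1+2 alone. Acta2, the smooth muscle actin, differed by -1.46 (adjusted p = 0.180). Of 12 retinoic acid genes Crabp1 was the only call, and Cyp26b1, which degrades retinoic acid, differed by -1.31 (adjusted p = 0.343). Wnt5a, a distal Wnt ligand, differed by -1.42 (adjusted p = 0.137), with 15 Wnt pathway genes at a median of -0.03 and 0 called. In the list of p53 targets and cell death, Pmaip1 read 5852 against 464 and 247 in ZPA and 8936 and 4866 against 1603 and 2442 in non-ZPA, a difference of -2.66 that fell short of the threshold (adjusted p = 0.0581). Bcl2l11 differed by -2.07 (adjusted p = 0.266), and 0 of 11 members were called. Rspo2, a Wnt agonist of the ridge list, differed by 1.87 (adjusted p = 0.145).

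**Figure D5:**
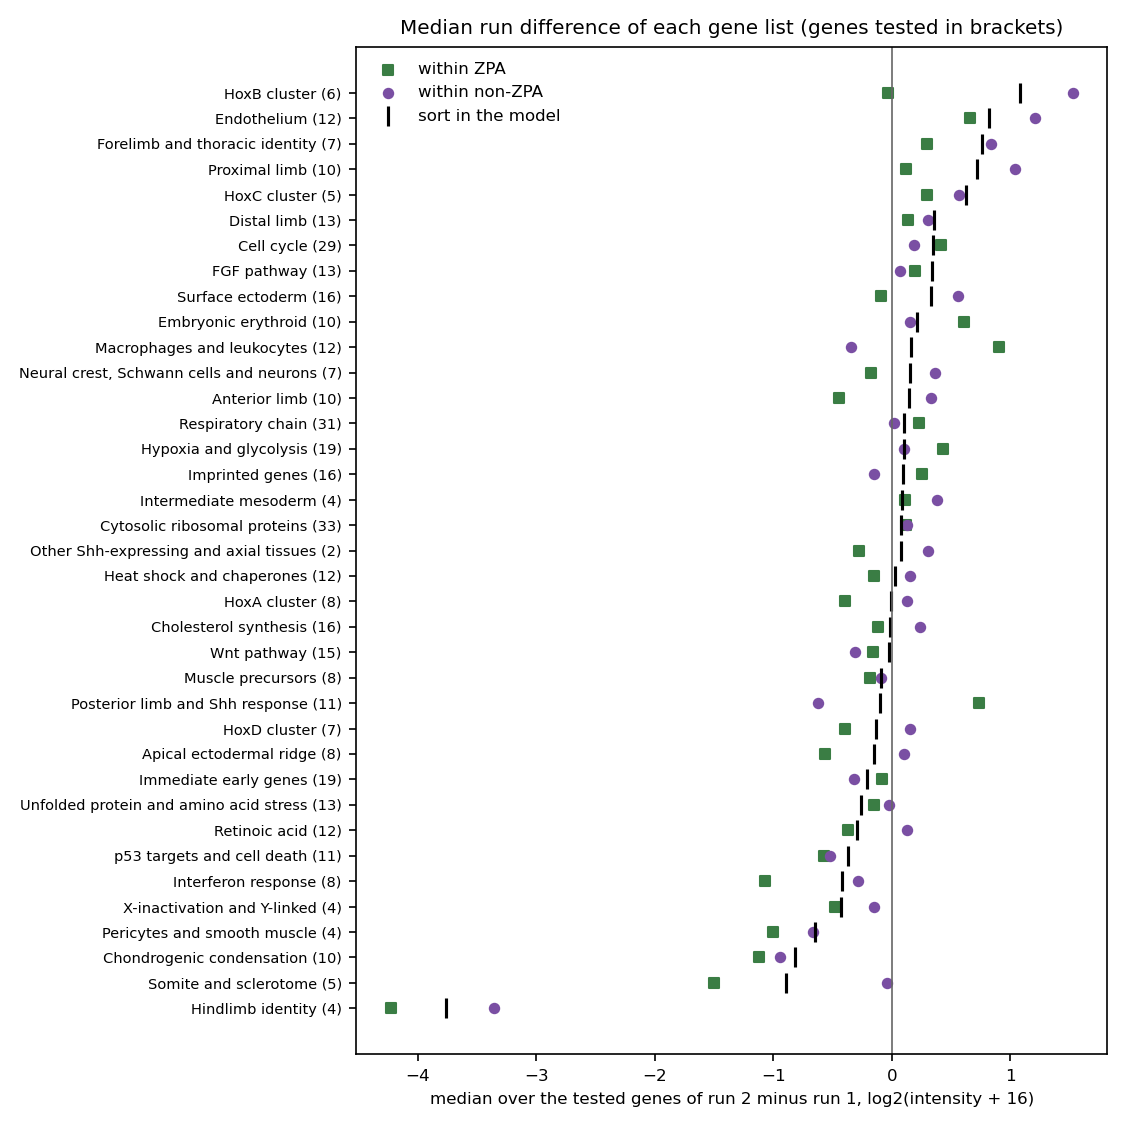
Median over the tested genes of each list of run 2 minus run 1 on the log2(intensity + 16) scale, within ZPA (green squares), within non-ZPA (purple circles) and with sort in the model (black ticks), with the number of tested genes in brackets. The hindlimb list has the lowest median of the lists drawn in both sorts, and the HoxB list the highest with sort in the model.

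Markers of other cell types differed between single arrays. The summed intensity of 12 macrophage and leukocyte genes was 16452 on ZPA array 4 and between 1038 and 2236 on the other 6 arrays. That of 10 embryonic erythroid genes was 18919 on ZPA array 1+2 and 23971 on ZPA array 3, and between 37663 and 58988 on the other arrays. In non-ZPA, where neither array of high spike-in signal takes part, the macrophage sums were 1941 and 2236 in run 1 and 1776 and 1361 in run 2, and 0 of the 12 genes were called. Lists for the cell cycle, ribosomal proteins, the respiratory chain, cholesterol synthesis, heat shock and hypoxia had medians between -0.02 and 0.35 and 0 called genes with sort in the model.

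Within non-ZPA alone, with 2 arrays a run, 3 genes passed the test (0.0225%), Hoxd13 and Jag1 lower and Igdcc3 higher in run 2, and 843 had an unadjusted p under 0.05. All 3 were also called with sort in the model. Overlaps of non-ZPA calls with the 21 genes are no separate support, since the same non-ZPA arrays helped to select the 21. Within non-ZPA, Pitx1, Bmp2, Rprm and Cbln4 missed the threshold at an adjusted p of 0.0602. This count depends on the ZPA arrays, whose spread enters the shared variance. It was 77 genes when the non-ZPA arrays were fitted alone, 18 of the 21 genes above among them, 70 without ZPA array 3, 73 without ZPA array 4 and 62 without both ZPA arrays of high spike-in signal. It was 0 without any 1 of the 4 non-ZPA arrays, in each case with 415 to 490 genes at an unadjusted p under 0.05 in limma.

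Within ZPA, 1505 genes passed (11.3%), 857 higher and 648 lower in run 2. This contrast sets ZPA array 1+2, the array of highest spike-in signal, against ZPA arrays 3 and 4, so it has no replicate in run 1 and takes its error from the other groups. Median centring of the arrays shifted the median of all genes from -0.04 to 0.38 and the split to 1222 higher and 215 lower. All 21 genes called with sort in the model were among the 1505. The same ZPA arrays helped to select the 21, so this overlap is no separate support. The run by sort interaction passed for 298 genes (2.23%), 151 with a more positive run difference in ZPA and 147 with a more negative one. In 280 of the 298, ZPA array 1+2 lay outside the range of the other 6 arrays, and in 125 the non-ZPA runs overlapped. The run 1 ZPA side of the interaction is that array alone, so the test favours genes with an extreme value on it. The shares of all genes with these features were not counted, so the 2 counts only describe the called genes. With median centring 195 genes passed, 186 positive and 9 negative. Both counts rest on single arrays. The interaction count was 0 without non-ZPA array 1, 3 or 4 (1756 to 1903 genes at an unadjusted p under 0.05 in limma), 24 without non-ZPA array 2, 1294 without ZPA array 4 and 2860 without ZPA array 3. The count within ZPA was 858, 859, 674 and 662 without non-ZPA arrays 1 to 4 in turn, 2422 without ZPA array 4 and 3981 without ZPA array 3.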

How the data were processed

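Values were the deposited signal intensity of every probe set on a linear scale. Per the submitters' processing notes the authors used GCOS 1.3, and how probes were summarised is not given in the sources used here. Target was made by 2-cycle amplification from 50 ng of total RNA, per the labels' protocols. Each column had a mean near 500 after the lowest and highest 2% were dropped, so arrays were already scaled, and no column lay outside the series. The deposited experiment files, which hold chip type and scan records, gave the Mouse430_2 array type for all samples, a scan day for all but ZPA 2 and a fluidics message for non-ZPA 1. Depth has no meaning here, and the number of arrays limits precision.

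Both run 1 ZPA columns differed by at most 0.5 and were averaged as 1 array; which replicate number it belongs to was not settled. Values were log2(intensity + 16). Probe sets above the 40th percentile of their array in at least 4 of 8 columns were kept, 1 per gene (highest mean), giving 13341 genes. Of 45101 probe sets, the platform annotation gave 34945 a single symbol and 932 more than 1, and 9160 stayed unnamed here; 34741 matched the GRCm38.p6 table. limma 3.58.1 in R 4.3.3 (eBayes with an intensity trend, 2-sided) fitted run with sort, and a 4-group model for run within each sort, the interaction and sort within each run. The fit was tested on simulated data. Nothing states that samples came from separate litters or sorts, so the p-values cover no more than the variation among these arrays, part of which may be technical.

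The comparison, gene lists and tests were chosen with earlier results of these data known. The naming rule took the limb identity genes, Shh, up to 12 called genes per direction with no overlap in either sort and a mean above the 60th percentile (filled with up to 6 uncalled ones), called or highest members of lists, and up to 6 interaction genes. Where lists are described, only some of the members it allows are named. Alternatives covered the pseudocount, scaling, filter, probe set rule, sort term, variance model, array weights, replicate block, threshold and each array left out.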

Additional observations from a re-analysis of the deposited data

Results flagged for a closer look

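For 6 genes, those with the largest interaction, the run difference in ZPA differed from that in non-ZPA by the interaction test. The difference of differences was -4.80 ± 0.84 for Spata3 (SE, limma adjusted p = 0.0286), 4.80 ± 0.72 for Myo9b (adjusted p = 0.0213), -4.80 ± 0.59 for Slc25a46 (adjusted p = 0.0154), -4.78 ± 0.76 for Yipf6 (adjusted p = 0.0228), 4.72 ± 0.91 for Ints1 (adjusted p = 0.034) and 4.71 ± 0.72 for Pdlim7 (adjusted p = 0.0213). In all 6, ZPA array 1+2 lay outside the range of the other 6 arrays. As the only run 1 ZPA array, it carries 1 side of the contrast, so the interaction test favours genes with an extreme value on it. Slc25a46, a mitochondrial outer membrane protein, read 38561 on that array and between 1792 and 6832 elsewhere. Yipf6, a Golgi membrane protein, read 12011 against 316 to 1835, and Spata3 369 against 36.2 to 294. Myo9b, an unconventional myosin, read 48.4 against 434 to 1893, Ints1, a subunit of the Integrator complex, 56.3 against 322 to 2858, and Pdlim7 42.3 against 522 to 2340. Pkdcc, Hoxd9 and Enho, whose intensities stand among the uncalled higher genes, also passed, with interactions of 3.38 ± 0.66 (adjusted p = 0.0347), 3.04 ± 0.58 (adjusted p = 0.0336) and 4.18 ± 0.66 (adjusted p = 0.0228), each with its lowest value on ZPA array 1+2. The same array had the highest spike-in signal, at 9.84 relative to the non-ZPA arrays, and the part of that in these values was not tested.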

How the results depend on the processing

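Each count of genes past the test depended on the settings, and the cause was not tested where none is given. With sort in the model the 21 genes became 38 with all probe sets tested, 3 without the sort term, 405 with array weights and 92 with the shared ZPA columns taken as 2 samples. They became 6 at an adjusted p under 0.01 and 40 at 0.1, 488 with ZPA fitted alone, 77 with non-ZPA alone, and 0 to 23 with 1 array left out. Within non-ZPA the 3 genes became 24 with a pseudocount of 64, 7 with quantile normalization, 0 with median centring (844 at an unadjusted p under 0.05), 13 with all probe sets and 12 with the probe set of highest variance. They became 149 with array weights, 33 with the shared columns as 2 samples, 0 at 0.01, 27 at 0.1, 77 fitted alone and 0 to 73 with 1 array left out. Within ZPA the 1505 genes became 349 at 0.01, 2503 at 0.1, 4527 with the shared columns as 2 samples, 488 fitted alone and 662 to 3981 with 1 array left out. The 298 interaction genes became 195 with median centring, 94 with no filter, 788 with array weights, 2240 with the shared columns as 2 samples, 0 at 0.01, 940 at 0.1 and 0 to 2860 with 1 array left out. In limma without an intensity trend the counts were 0, 0, 304 and 0 in this order of comparisons, while an unadjusted p under 0.05 was reached by 1303, 929, 3592 and 2594 genes. The labels give ZPA and non-ZPA the same replicate numbers but do not say what a number shares. In run 2 deviations of same-numbered arrays correlated at -0.065, and with 2 arrays a group and a shared array in run 1 this does not settle whether the numbers pair the samples. A random replicate block gave 391 genes with sort in the model and 153 for the interaction, at an estimated correlation of -0.42 between same-numbered arrays. Chosen after seeing the data, the block with the shared array as replicate 2 gave 316 and 179 (correlation -0.41), and leaving out both ZPA arrays of high spike-in signal gave 62 genes with sort in the model, which is then the non-ZPA contrast, also 62.

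The sign of all 21 genes was the same in each alternative. With arrays left out this was fixed in advance by the lack of overlap between the runs in both sorts. Of 2188 alternative values for 94 gene results, 1782 kept direction and side of the threshold, 273 no longer passed, 115 newly passed and 18 changed sign. None of those 18 belonged to a call. Hoxc8 became 0.056 with quantile normalization, 0.12 with array weights, 0.20 without ZPA array 3 and 0.37 without ZPA array 1+2, with non-ZPA alone or without both ZPA arrays of high spike-in signal. Hoxa9 became 0.073 with array weights and 0.15 in those last 3 settings. Tbx5 within non-ZPA became -0.031 with median centring and ranged from -0.061 (without non-ZPA array 1) to 0.26 with 1 array left out. The Pitx1 interaction became 0.34 with median centring, 0.50 without ZPA array 3 and 0.31 without non-ZPA array 3, with -0.92 the lowest value with 1 array left out. With ZPA alone Hoxb5 became -0.40, Hoxb6 -0.81 and Hand2 0.61. Without ZPA array 1+2 there is no ZPA contrast or interaction, and a sort fitted alone gives no interaction. A single array left in a group was assumed to vary like the others.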
